A study of Rattus norvegicus with 6 samples.

Results

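Complement and coagulation are proteolytic cascades of the blood, and the genes followed here encode their enzymes, cofactors, receptors and inhibitors as transcribed in the kidney. The 40 genes were listed by symbol, and an array probe was taken as theirs where its RefSeq accession, read without the version, belonged to that gene. In this way 35 of the 40 genes had at least 1 probe, among 15168 named genes on the array, and 43 probes in all. Cd59 was matched through its current symbol Cd59b. C4b, C5, C7, C8g and F5 had no matched probe and are not analysed here. Rat kidney RNA came from 2 groups of samples, both labelled 21 weeks: 3 labelled as treated with Bailing Capsule, a preparation of fermented Cordyceps mycelium, and 3 labelled diabetic. The labels give no strain, sex, dose, length of treatment or way of inducing diabetes, do not say whether the treated rats were diabetic as well, and no normal kidney is among the samples. The series asks what the preparation does to renal gene expression.

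As background, complement is started by antibody and C1 (classical route), by mannose-binding lectin and its proteases (lectin route) or by slow turnover of C3 amplified by factors B and D (alternative route). All routes cleave C3 and then C5, release the anaphylatoxins and can build the membrane attack complex, while membrane and plasma regulators hold the cascade in check on host cells. Coagulation is set off when tissue factor meets factor VII, is restrained by tissue factor pathway inhibitor, by thrombomodulin with protein C and by serpins, and the clot is removed by plasmin, which the plasminogen activators generate. Most of the circulating proteins are made in liver, but tubular and glomerular cells, endothelium and resident macrophages transcribe several of them.

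Each array was a one-colour Agilent rat array, and every value below is a log2 signal relative to that array's 75th percentile, so 0 is the signal that 75% of probes do not exceed. Values of a gene are compared between arrays only, since probes of different genes differ in brightness for reasons of their own. The files held 42877 spots per array other than controls, for 30367 probes, and between 64.5% and 73.5% of them cleared background by the scanner's own flag. Arrays correlated at 0.966 to 0.992 across the features tested. The array number of 3 per group limits the precision, and since nothing in the labels says how the replicates were obtained, the tests weigh differences only against the spread among these 6 samples, which may be technical. All 3 Bailing Capsule arrays and diabetic replicate 1 shared 1 scan time, and diabetic replicates 2 and 3 shared another. Arrays with the same scan time were taken to lie on the same slide, the former on slide 1, so slide and group are partly confounded. Wherever slide is named below, it stands for this grouping by scan time. Of the kidney epithelium markers, 10 of 11 had a probe and all 10 were tested, among them the slit diaphragm gene Nphs1, the proximal glucose transporter gene Slc5a2 and the thick limb gene Umod. Among the 10, 5 had positive and 5 negative differences, and 1, the intercalated cell anion exchanger gene Slc26a4, was called higher (log2 1.68, adjusted p = 0.0457 in limma).

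Of the 35 genes with a probe, 25 were bright enough to test, 9 were below the filter on dim probes, and 1, Plat, lacked values on Bailing Capsule replicates 2 and 3, where its spot was marked as an outlier. A probe passed where it was well above background on all 3 arrays of at least 1 group, which held for 62.8% of the members' probes and 65.4% of all probes. No member passed the test at an adjusted p under 0.05 (limma with Benjamini-Hochberg adjustment over all 17892 features tested), and the lowest adjusted p was 0.419, for F3. Over all features 0.319% were called, 0.129% higher and 0.19% lower in Bailing Capsule kidneys. At an unadjusted p under 0.05 there were 5 members of 25, Proc, C4a and Cfb with positive and F3 and F10 with negative values, where the share over all features was 7.55%. The groups did not overlap for 6 members, these 5 and Masp2, against 11.6% of all features. Of the 25, 3 did so with higher and 3 with lower treated values, where the shares over all features were 4.58% and 7.06%. F10 and C2 were detected on all 3 diabetic arrays but on 2 of 3 treated ones, so F10, lower in treated kidneys, entered the test through the group where it was brighter. Among the 23 members detected on all 6 arrays, 4 had an unadjusted p under 0.05 and 5 did not overlap, where the shares over the 16096 features detected on all 6 were 6.24% and 10.8%. The median log2 difference, Bailing Capsule minus diabetic, was 0.028 over the 25 members, 13 positive and 12 negative, and -0.09 over all features, of which 11113 were negative and 6779 positive.

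**Figure D1:**
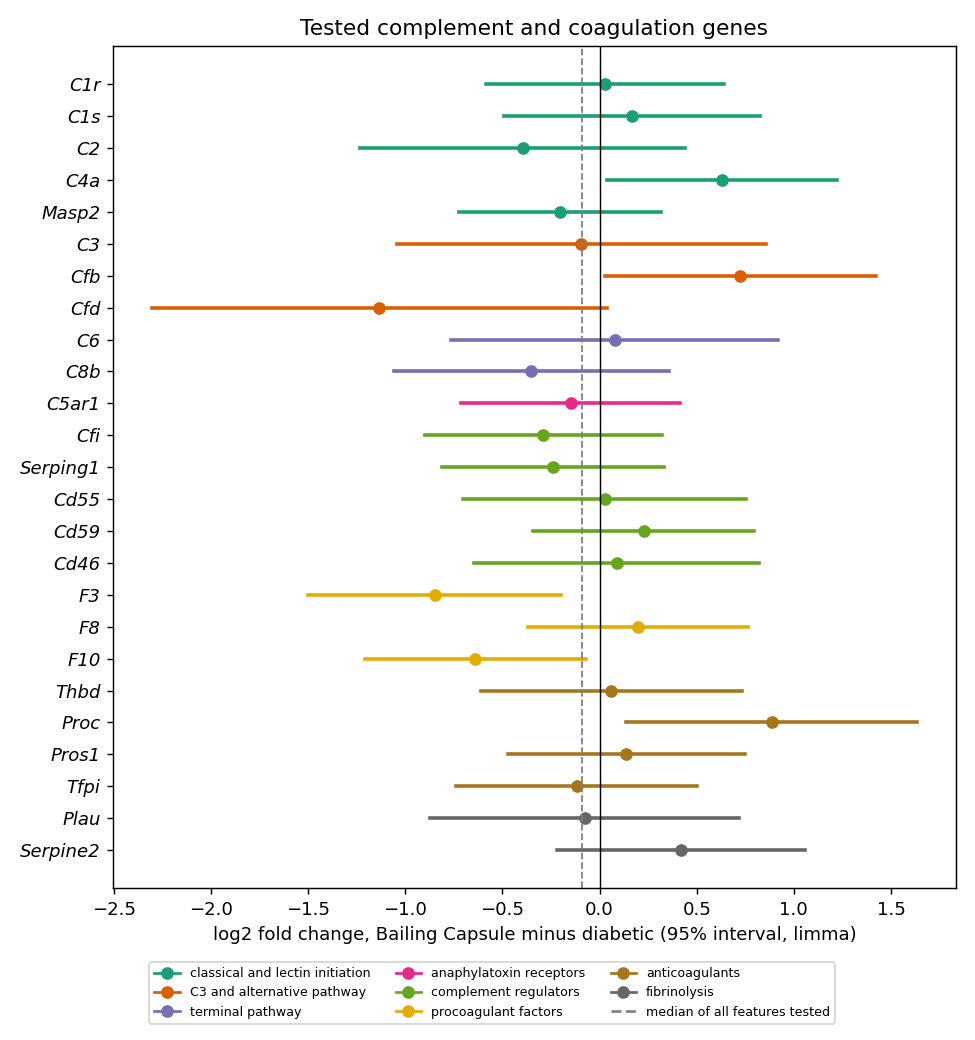
Log2 fold change (horizontal axis, Bailing Capsule minus diabetic) of the 25 tested members, with points at the estimate, lines for the 95% interval from limma, and colours for the role of the gene. The dashed line is the median of all features tested, and the intervals of F3, F10, C4a, Cfb and Proc leave out 0 before any adjustment.

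In the fit without slide as a block, the intervals set the size of change that these arrays leave room for. In 15 of the 25 tested members the 95% interval lay wholly within a 2-fold change in either direction: C1r, C1s, Masp2, C6, C5ar1, Cfi, Serping1, Cd55, Cd59, Cd46, F8, Thbd, Pros1, Tfpi and Plau. The other 10 intervals reached past a 2-fold change on 1 side. The widest was that of Cfd (-2.31 to 0.04 on the log2 scale) and the narrowest that of Masp2 (-0.72 to 0.32). These intervals are for each gene on its own, and a gene that misses the threshold is not shown to be unchanged. With slide as a block the SE of every tested member was larger, so the list of 15 holds only for the fit without it.

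RefSeq's promoter table (build GRCr8) held 25 of the 40 genes. For the 6 members with the smallest unadjusted p it held C4a, Cfd, Proc and F10, and the 250 bases before the start of each are shown here, since these are the members nearest to a difference. Capitals mark every match, on either strand, to 7 motifs searched: the TATA box TATAAA, the AP-1 motif TGANTCA, the Sp1 motif GGGCGG, the CAAT box CCAAT, the E-box CACGTG, a paired GAAA motif (GAAA, any 2 bases, GAAA) and the NF-kB consensus.
C4a (chr20:4010107-4010356, plus strand): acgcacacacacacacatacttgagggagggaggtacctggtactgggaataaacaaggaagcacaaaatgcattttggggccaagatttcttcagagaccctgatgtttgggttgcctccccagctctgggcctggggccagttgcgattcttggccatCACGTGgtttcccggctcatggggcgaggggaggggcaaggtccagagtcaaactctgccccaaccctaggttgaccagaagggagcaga
Cfd (chr7:10465497-10465746, minus strand): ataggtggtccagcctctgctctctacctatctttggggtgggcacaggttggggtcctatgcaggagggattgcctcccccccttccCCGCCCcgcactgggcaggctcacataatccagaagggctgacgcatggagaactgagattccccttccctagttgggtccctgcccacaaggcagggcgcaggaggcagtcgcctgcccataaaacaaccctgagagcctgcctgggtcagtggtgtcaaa
Proc (chr18:24048942-24049191, minus strand): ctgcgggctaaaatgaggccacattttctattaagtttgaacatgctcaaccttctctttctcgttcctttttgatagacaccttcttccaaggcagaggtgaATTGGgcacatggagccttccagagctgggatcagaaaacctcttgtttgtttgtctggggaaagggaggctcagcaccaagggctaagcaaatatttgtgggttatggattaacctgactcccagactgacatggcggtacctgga
F10 (chr16:83190281-83190530, minus strand): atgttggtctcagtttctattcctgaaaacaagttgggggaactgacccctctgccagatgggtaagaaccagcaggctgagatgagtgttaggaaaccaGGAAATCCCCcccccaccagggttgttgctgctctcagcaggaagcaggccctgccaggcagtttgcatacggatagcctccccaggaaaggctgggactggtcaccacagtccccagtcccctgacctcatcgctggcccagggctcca
The capitals in C4a are the E-box, 90 to 85 bases before the start. Those in Cfd are an Sp1 motif on the opposite strand, those in Proc a CAAT box on the opposite strand, and those in F10 the NF-kB consensus on the opposite strand, 150 to 141 bases before the start. Over all 33469 windows of this length the E-box was found in 5.6%, the Sp1 motif in 30.5%, the CAAT box in 34% and the NF-kB consensus in 3.5%. The motifs not matched in these windows were found in 12.9% (TATA box), 6.3% (AP-1) and 3.4% (paired GAAA) of all. No motif was shared by any pair of these 4 windows, and each match is a description of the letters only.

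Of the 5 tested members that start the classical and lectin routes, C4a had the smallest p. C4a encodes a form of C4, the substrate of C1s and MASP-2 whose larger fragment forms the C3 convertase with C2. Its log2 signal was 3.95, 3.42 and 3.47 on the Bailing Capsule arrays and 2.72, 3.08 and 3.15 on the diabetic arrays. Every Bailing Capsule array was above every diabetic array, by a log2 difference of 0.63 (SE 0.27, 1.55-fold; unadjusted p = 0.0391, adjusted p = 0.609 in limma). With slide as a block, which then rests on diabetic replicate 1 alone, it was 0.89 (adjusted p = 0.94). C4b is a near copy of C4a with no probe of its own here, so the C4a probe may read both.

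C2, the protease that pairs with a fragment of C4, had -5.79, -4.19 and -5.27 on the Bailing Capsule arrays and -4.56, -4.79 and -4.71 on the diabetic arrays, and cleared background on 2 of 3 treated arrays. The Bailing Capsule arrays lay on both sides of the diabetic arrays, and the difference of -0.40 (SE 0.38, interval -1.23 to 0.44, unadjusted p = 0.317, adjusted p = 0.952 in limma) did not exceed the spread. It was -0.041 without Bailing Capsule replicate 1 and -0.84 without replicate 2. A further C2 probe was well above background on 1 diabetic array and no Bailing Capsule array. The proteases of the C1 complex, C1r and C1s, are neighbours on the chromosome, and their differences were 0.03 (interval -0.58 to 0.64) and 0.17 (interval -0.49 to 0.82), with that of C1r at -0.14 with slide as a block. Masp2, the lectin route protease that cleaves C4, averaged -4.37 ± 0.069 in Bailing Capsule kidneys and -4.17 ± 0.10 in diabetic kidneys (SD, n = 3 each). The groups did not overlap for Masp2, yet its difference of -0.20 was small (adjusted p = 0.968). Masp1, whose product activates MASP-2, had 3 probes, and the most often detected of them was well above background on 2 Bailing Capsule arrays and 1 diabetic array.

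At the centre of the cascade, C3 itself gave no steady direction while the 2 alternative route enzymes had opposite signs. C3 had -2.09, -1.36 and -1.90 on the Bailing Capsule arrays and -2.34, -2.10 and -0.64 on the diabetic arrays. Diabetic replicate 3 was well above the other diabetic arrays, so the diabetic SD of 0.92 was the widest of that group among the tested members, and the difference of -0.094 (SE 0.43, interval -1.04 to 0.86, unadjusted p = 0.83, adjusted p = 0.99 in limma) turned to 0.55 with slide as a block and to 0.43 without diabetic replicate 3. Cfb, factor B, which binds C3b and carries the protease of the alternative route convertase, had 0.58, 0.03 and 0.03 on the Bailing Capsule arrays and -0.04, -0.47 and -1.03 on the diabetic arrays. Its groups did not overlap, with a difference of 0.73 (1.65-fold; SE 0.31, interval 0.03 to 1.42, unadjusted p = 0.0424, adjusted p = 0.63 in limma), but the nearest arrays were only a small step apart. The highest diabetic value was that of replicate 1, and with slide as a block the difference was 0.25 (adjusted p = 1). Without diabetic replicate 3 it was 0.47.

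Cfd, factor D or adipsin, cleaves factor B and is made in quantity by fat cells. Its log2 signal was 0.52, -1.79 and -1.36 on the Bailing Capsule arrays and 0.66, 0.36 and -0.26 on the diabetic arrays. Bailing Capsule replicates 2 and 3 were below all diabetic arrays, while replicate 1 was within the diabetic range. The difference of -1.13 (SE 0.53, unadjusted p = 0.0569, adjusted p = 0.688 in limma) was the largest in size among the tested members. Without Bailing Capsule replicate 1 it was -1.83 and passed (adjusted p = 0.0225), the only call of a member when single arrays were left out. Without replicate 2 it was -0.68 (adjusted p = 0.982 in limma). The median of 8 tested adipocyte markers, relative to the diabetic mean, was 0.16, -1.53 and -0.48 in Bailing Capsule kidneys and 0.25, -0.031 and -0.20 in diabetic kidneys. Among treated samples this median was highest in replicate 1, but single markers differed. Cidec and Lipe were lowest in that sample, and Cidea and Adrb3 were highest in replicate 3. The summed signal of the adipocyte markers, with the array's 75th percentile as 1, was 4.65 to 14.2 in Bailing Capsule kidneys and 13 to 19.4 in diabetic kidneys. Such sums mostly reflect the brightest genes of a list, here Adipoq and Cidea. Of 11 listed markers Lep and Ucp1 were below the filter and Plin1 had no probe. The part of fat tissue in the Cfd values was not tested. In tissue RNA, fewer cells of a type and less RNA per cell cannot be told apart. Properdin, encoded by Cfp, stabilises the alternative convertase, and its probe was well above background on 2 Bailing Capsule arrays and on no diabetic array, so it was not tested.

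**Figure D2:**
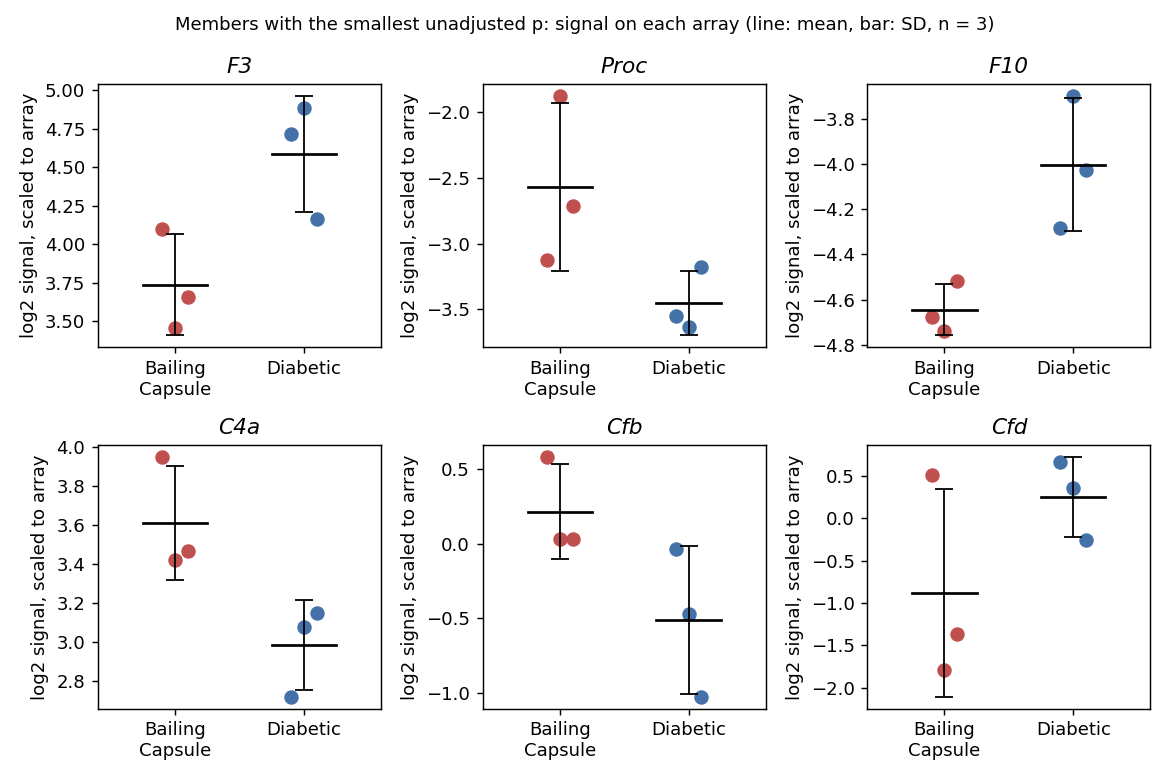
Log2 signal relative to the array's 75th percentile (vertical axis) for the 6 members with the smallest unadjusted p, with 1 point per array, Bailing Capsule left of diabetic, the mean as a line and the SD as a bar (n = 3). Groups overlap only for Cfd, where Bailing Capsule replicate 1 lies among the diabetic arrays.

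Of the 7 terminal pathway members, C5, C7 and C8g had no matched probe and so were not measured, and 2 of the other 4 were tested. C6, which joins C5b in the nascent attack complex, averaged -1.12 ± 0.75 in Bailing Capsule kidneys and -1.20 ± 0.35 in diabetic kidneys (SD, n = 3 each), a difference of 0.077 (interval -0.76 to 0.92). C8b, a chain of the C8 subunit, had -2.92, -3.36 and -3.11 on the Bailing Capsule arrays and -3.15, -2.13 and -3.07 on the diabetic arrays. Diabetic replicate 2 stood above the other arrays, and the groups overlapped (difference -0.35, SE 0.32, interval -1.06 to 0.36, unadjusted p = 0.295, adjusted p = 0.945 in limma). C8a, its chromosomal neighbour, and C9, the pore-forming subunit, were each above background on at most 1 array. Of the anaphylatoxin receptors, which draw and activate leukocytes, C5ar1 had -2.22, -2.37 and -1.88 on the Bailing Capsule arrays and -2.08, -2.12 and -1.83 on the diabetic arrays. These values overlapped, with a difference of -0.15 (SE 0.25, interval -0.71 to 0.41, unadjusted p = 0.57, adjusted p = 0.976 in limma). C3ar1, dim throughout, had -4.61, -5.83 and -5.38 on the Bailing Capsule arrays and -5.41, -5.70 and -4.05 on the diabetic arrays; it was above background on 1 Bailing Capsule array and 2 diabetic arrays and was not tested. Markers of macrophages and myeloid cells, 11 of 13 tested, had a median difference of 0.08, 7 of them positive, and their summed signal was 52.8 to 92.2 in Bailing Capsule kidneys and 59.1 to 70.3 in diabetic kidneys, most of it from Lyz2. Of that list Cd163 and Mrc1 were below the filter. The calprotectin genes S100a8 and S100a9, abundant in neutrophils, had the largest differences of that list, at -1.78 and -1.46 (adjusted p = 0.11 and 0.129 in limma). Their groups did not overlap, as for 7.06% of all features with lower treated values. Both were dim and detected on all 3 diabetic arrays but on 2 of 3 treated ones. They thus entered the test through the group where they were brighter.

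The 5 complement regulators among the members were all tested, and their groups overlapped throughout. Serping1, the C1 inhibitor, which also restrains plasma kallikrein, had 3.90, 3.42 and 3.75 on the Bailing Capsule arrays and 3.95, 3.71 and 4.12 on the diabetic arrays, a difference of -0.24 (SE 0.26, interval -0.81 to 0.33, unadjusted p = 0.37, adjusted p = 0.964 in limma). Cd59, which blocks assembly of the attack complex, had 3.87, 3.89 and 3.92 on the Bailing Capsule arrays and 3.57, 4.01 and 3.42 on the diabetic arrays. The treated arrays of Cd59 lay very close together (SD 0.026) within the spread of the diabetic arrays, and the difference was 0.23 (SE 0.26, interval -0.34 to 0.79, unadjusted p = 0.395, adjusted p = 0.968 in limma). Cfi, factor I, which degrades C3b and C4b, had -0.50, -0.84 and -0.47 on the Bailing Capsule arrays and -0.73, -0.16 and -0.057 on the diabetic arrays. Its difference of -0.29 (SE 0.27, interval -0.90 to 0.32, unadjusted p = 0.317, adjusted p = 0.952 in limma) turned to 0.13 with slide as a block. Cd55, the decay-accelerating factor, had -3.59, -2.58 and -3.07 on the Bailing Capsule arrays and -3.56, -2.98 and -2.79 on the diabetic arrays, a difference of 0.028 (SE 0.33, interval -0.70 to 0.76, unadjusted p = 0.934, adjusted p = 0.998 in limma), and a further Cd55 probe was not well above background on any array. Cd46, a cofactor of factor I that in rodents is best known from the testis, had a dim probe with a difference of 0.089 (interval -0.64 to 0.82) that turned to -0.28 with slide as a block.

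On the coagulation side, tissue factor had the smallest p of all members. F3 encodes tissue factor, the membrane protein that triggers clotting. Its log2 signal was 4.10, 3.46 and 3.66 on the Bailing Capsule arrays and 4.72, 4.88 and 4.16 on the diabetic arrays. All 3 treated arrays lay below all 3 diabetic arrays, although Bailing Capsule replicate 1 and diabetic replicate 3 were nearly equal. The difference was -0.85 (SE 0.29, 1.8-fold lower; unadjusted p = 0.0154, adjusted p = 0.419 in limma). Within slide 1, against diabetic replicate 1 alone, it was -0.98, and over 19 other settings it ran from -1.06 to -0.69 with no call.

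F10, the protease that turns prothrombin into thrombin, had -4.67, -4.74 and -4.52 on the Bailing Capsule arrays and -4.28, -3.70 and -4.03 on the diabetic arrays, and cleared background on 2 of 3 treated arrays. All treated arrays were lower, with a log2 difference of -0.64 (SE 0.26, interval -1.21 to -0.071, unadjusted p = 0.0309, adjusted p = 0.561 in limma). The signals were close to background, and the difference was -0.36 with slide as a block and -0.11 with normexp background correction. F7, the next gene to F10 on the chromosome and the partner of tissue factor, was not well above background on any array. F8, the cofactor of factor IX, averaged -1.69 ± 0.22 in Bailing Capsule kidneys and -1.89 ± 0.21 in diabetic kidneys (SD, n = 3 each), a difference of 0.20 (interval -0.37 to 0.76).

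The anticoagulant genes were led by Proc, which encodes protein C, the protease that thrombomodulin turns on to destroy factors V and VIII. Its log2 signal was -3.13, -1.87 and -2.71 on the Bailing Capsule arrays and -3.55, -3.63 and -3.18 on the diabetic arrays. Every treated array was above every diabetic array, with Bailing Capsule replicate 2 the highest and replicate 1 just above diabetic replicate 3, and the difference was 0.89 (SE 0.34, 1.85-fold; unadjusted p = 0.0251, adjusted p = 0.514 in limma). With slide as a block it was 0.98 (adjusted p = 1), and normexp correction gave 0.37. Without Bailing Capsule replicate 2 it was 0.54 (unadjusted p = 0.0871, adjusted p = 0.796 in limma). The liver markers had values of the opposite sign: 8 of 9 tested were negative, with a median of -1.09, where 62.1% of all features were negative. Their relation to the Proc values was not tested.

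Thbd, thrombomodulin, had 1.27, 0.62 and 0.88 on the Bailing Capsule arrays and 0.40, 1.27 and 0.92 on the diabetic arrays. These arrays overlapped, with a difference of 0.062 (SE 0.30, interval -0.61 to 0.73, unadjusted p = 0.842, adjusted p = 0.991 in limma), and a further Thbd probe was not above background on any array. Pros1, protein S, the cofactor of protein C, had a difference of 0.14 (interval -0.47 to 0.75), and of -0.041 with slide as a block. Procr, the endothelial receptor of protein C, had -6.79, -5.54 and -6.18 on the Bailing Capsule arrays and -6.53, -6.07 and -5.65 on the diabetic arrays, above background on 1 Bailing Capsule array only. Serpind1, heparin cofactor II, was above background on no array. Endothelial markers, 7 of 10 tested, had a median difference of -0.057 and a summed signal of 45.7 to 69.2 in Bailing Capsule kidneys and 52.8 to 73.8 in diabetic kidneys, with Tek and Tie1 below the filter and Egfl7 without a probe. Kdr made up most of this sum.

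Tfpi, the inhibitor of tissue factor with factor VII, was measured by 2 probes designed to different transcripts, and they differed. The brighter probe, for NM_017200, had 3.67, 3.20 and 3.42 on the Bailing Capsule arrays and 3.44, 3.95 and 3.24 on the diabetic arrays, a difference of -0.12 (interval -0.74 to 0.50). The dimmer probe, for NM_001177321, had -4.45, -4.54 and -5.16 on the Bailing Capsule arrays and -4.20, -3.46 and -3.20 on the diabetic arrays. On the dimmer probe every treated array was lower than every diabetic array. Its difference was -1.09 (SE 0.33; unadjusted p = 0.00731, adjusted p = 0.303 among 19819 probes tested on their own in limma), -0.51 with slide as a block and -0.23 with normexp correction. Of all probes tested on their own 60 were called, and 0 were members' probes; in that limma fit 6 of the 26 members' probes tested had an unadjusted p under 0.05, where 7.75% of all probes did.

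Of the fibrinolysis genes, Plau and Serpine2 were tested. Plau encodes urokinase, a plasminogen activator that the kidney secretes into urine, and had -0.72, 0.78 and 0.035 on the Bailing Capsule arrays and -0.049, 0.18 and 0.20 on the diabetic arrays. The treated arrays spread widely around the tight diabetic values, with Bailing Capsule replicate 1 lowest and replicate 2 highest, and the difference was -0.077 (SE 0.36, interval -0.87 to 0.72, unadjusted p = 0.835, adjusted p = 0.991 in limma). Serpine2, protease nexin-1, which inhibits thrombin and urokinase, had -2.81, -2.10 and -2.51 on the Bailing Capsule arrays and -3.15, -3.002 and -2.53 on the diabetic arrays. Its groups overlapped, with a difference of 0.42 (SE 0.29, interval -0.22 to 1.06, unadjusted p = 0.176, adjusted p = 0.886 in limma), and 0.23 without Bailing Capsule replicate 2. Plat, tissue plasminogen activator, had 2.17 on the 1 Bailing Capsule array with a value and 1.78, 2.35 and 2.23 on the diabetic arrays, so that single value lay among the diabetic ones. Plaur, the urokinase receptor, had -4.85, -4.75 and -3.65 on the Bailing Capsule arrays and -4.43, -5.14 and -5.41 on the diabetic arrays by its better probe, which was above background on 2 Bailing Capsule arrays and 1 diabetic array and was not tested.

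**Figure D3:**
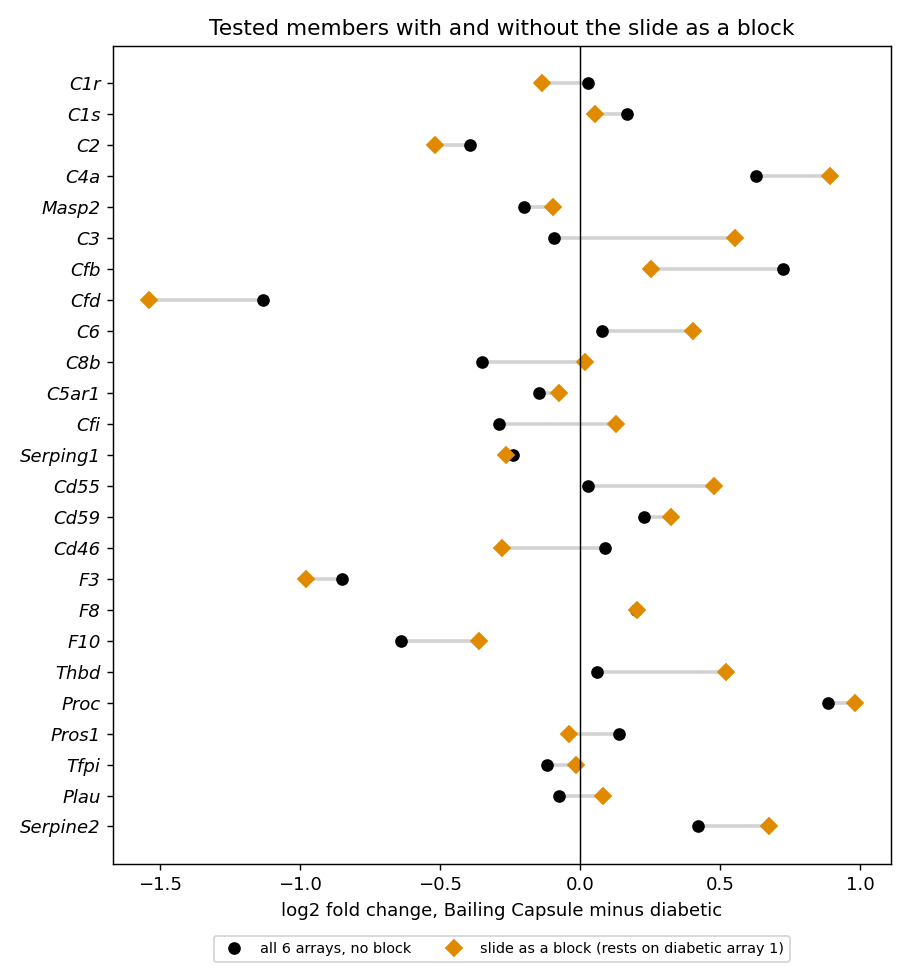
Log2 fold change (horizontal axis, Bailing Capsule minus diabetic) of the 25 tested members from all 6 arrays (black circles) and with slide as a block (orange diamonds). The latter equals the difference within slide 1 and rests on 1 diabetic array. Slide stands for shared scan time. F3, Proc and C4a keep a similar or larger size, while Cfb and F10 shrink and 7 members change sign, namely C3, Cfi, C8b, Plau, C1r, Cd46 and Pros1.

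The other 61 complement, coagulation and fibrinolysis genes listed give the setting. Of these, 54 had a probe and 37 were tested, 1 was called, and the median difference was -0.33, with 26 negative and 11 positive. Over all features 0.319% were called, the median was -0.09 and 62.1% were negative. At an unadjusted p under 0.05 there were 14, 12 of them negative, where 7.55% of all features reached that threshold and 4.54% did so with lower treated values. The called gene was Clu, clusterin, a chaperone that also blocks the attack complex. It had 0.76, 1.44 and 1.02 on the Bailing Capsule arrays and 2.67, 2.74 and 2.47 on the diabetic arrays. The treated arrays were all well below the diabetic ones, and Clu fell by 2.93-fold (log2 -1.55, SE 0.27, adjusted p = 0.0493 in limma); the call was lost with slide as a block, at -1.59 (adjusted p = 0.217), and under 13 of 19 settings in all. Without Bailing Capsule replicate 2 or 3 or diabetic replicate 2 or 3 Clu missed the threshold too (adjusted p = 0.0536, 0.222, 0.229 and 0.175 in limma).

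Next by p came F2, prothrombin, with 3.31, 1.86 and 2.48 on the Bailing Capsule arrays and 4.32, 4.71 and 4.596 on the diabetic arrays. The groups were well apart, yet F2 missed the threshold (log2 -1.99, SE 0.36, adjusted p = 0.0593) and passed under 6 of 19 other settings, among them those without Bailing Capsule replicate 1 (adjusted p = 0.00306) and without diabetic replicate 1 (adjusted p = 0.031 in limma). The kininogen genes Kng1 and Kng2, which share sequence and may share signal, had differences of -1.96 and -2.41 (adjusted p = 0.123 and 0.175 in limma), and -0.54 and -1.41 with normexp correction. Kng1 cleared background on 2 of 3 treated arrays and on all 3 diabetic arrays, so it entered the test through the group where it was brighter. For fibrinogen, the beta chain gene Fgb had -1.74 (-0.88 with slide as a block) and the alpha chain gene Fga -1.20 (-1.16 with slide as a block). Itgb2, the beta chain of complement receptor 3, had -0.86, and Mbl1, a mannose-binding lectin, -0.98 (adjusted p = 0.253 and 0.27 in limma), with Mbl1 at -0.60 under normexp. These genes carried negative values on the coagulation side and in part of the complement list, and none of them but Clu passed.

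The C1q chain genes ran the other way and are named after their values were seen. C1qa had -1.33, -0.13 and -1.21 on the Bailing Capsule arrays and -1.61, -1.87 and -1.55 on the diabetic arrays. C1qc had -3.22, -1.997 and -3.05 on the Bailing Capsule arrays and -3.42, -4.20 and -3.58 on the diabetic arrays. Both had every treated array above every diabetic array, with Bailing Capsule replicate 2 the highest, and differences of 0.79 and 0.98 (adjusted p = 0.62 and 0.497 in limma). Without that replicate the differences were 0.41 for C1qa and 0.60 for C1qc, and with normexp correction 0.47 and 0.39. C1qb had 0.47 and overlapping groups. C1q is made largely by macrophages.

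By array, the median over the tested members relative to the diabetic mean was -0.027, 0.15 and -0.025 in Bailing Capsule kidneys and -0.10, 0.042 and 0.083 in diabetic kidneys, which overlap. The 18 tested other coagulation genes had -0.26, -0.56 and -0.60 in Bailing Capsule kidneys and -0.20, 0.21 and 0.071 in diabetic kidneys. These did not overlap, though replicate 1 of each group, both on slide 1, were close. Liver markers had -0.90, -0.88 and -1.22 in Bailing Capsule kidneys and -0.27, 0.41 and 0.17 in diabetic kidneys, also without overlap. The summed signal of the 9 tested liver markers, most of it from Tf, was 18.9 to 43 in Bailing Capsule kidneys and 28.9 to 61.8 in diabetic kidneys, and Apoa1, Apoa2, Ahsg, Hp, Tat and Cps1 were below the filter. Several liver markers, such as Rbp4, which was called at -2.09 (adjusted p = 0.0453 in limma), are also transcribed in kidney tubules, and their part in the coagulation values was not tested. The 5 tested blood and platelet markers of 8 had 0.65, 0.19 and 0.67 in Bailing Capsule kidneys and -0.21, 0.19 and 0.021 in diabetic kidneys, with summed signals of 58.7 to 128 in Bailing Capsule kidneys and 70.9 to 93.5 in diabetic kidneys. Hbb, with a difference of 0.024, made up most of these sums. The median difference of the 5 markers was 0.52, the value of Slc4a1. The largest were those of the erythroid gene Alas2 (1.04, adjusted p = 0.287) and the platelet gene Pf4 (0.83, adjusted p = 0.566 in limma). Gp9, the other platelet gene tested, had -0.099. Ppbp was below the filter, Hba-a2 and Itga2b had no probe, and the part of blood in the members' values was not tested.

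**Figure D4:**
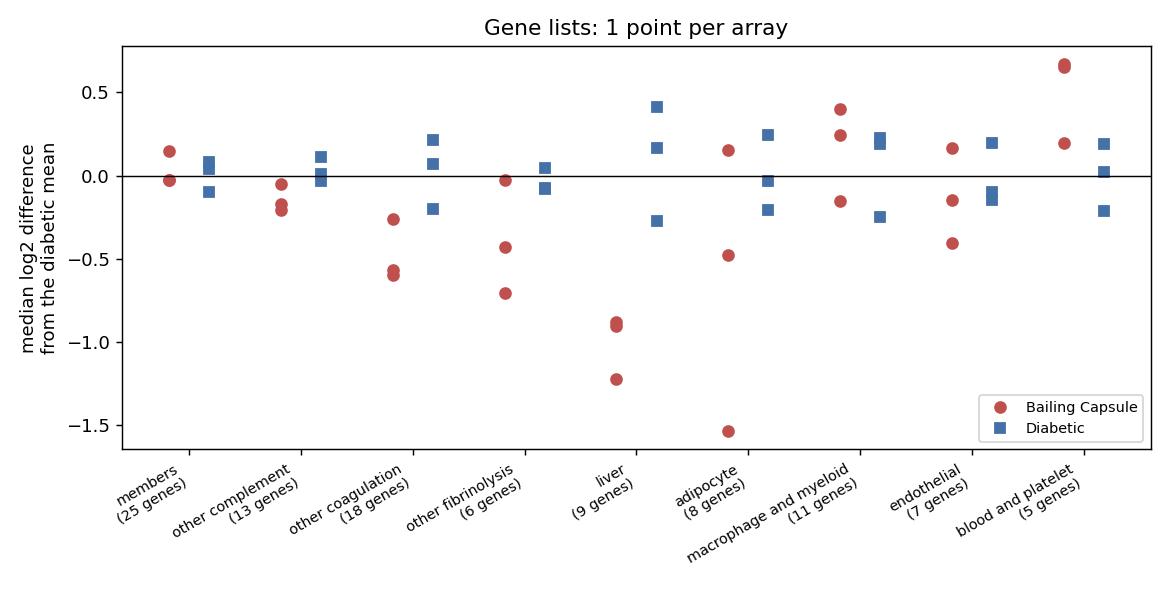
Median log2 difference from the diabetic mean (vertical axis) over the tested genes of each list, 1 point per array, Bailing Capsule (circles) left of diabetic (squares). Members lie around 0 in both groups. The other complement genes, the other coagulation genes and the liver markers are lower on every Bailing Capsule array than on any diabetic array. The median difference of the other complement genes, -0.063, was no lower than the -0.09 of all features, which is not drawn. For the complement and coagulation genes the nearest arrays, replicate 1 of each group, are only a little apart. The blood and platelet markers are higher by a narrow margin.

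Position on the chromosome gave no common pattern by eye. C2 and Cfb are adjacent, with 4 genes between Cfb and C4a, and their differences were -0.40, 0.73 and 0.63. The adjacent C1r and C1s both had small positive values over all 6 arrays. Across roles, the 3 members with positive values at an unadjusted p under 0.05 were a C4 gene, factor B and protein C, and the 2 with negative values were tissue factor and factor X. None of the 5 was called under any of the settings tried, and of the members only Cfd was, in 1 setting.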

How the data were processed

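Rat kidney RNA samples, 3 Bailing Capsule and 3 diabetic, were hybridised to 6 one-colour Agilent arrays, labelled with Cy3 per the labels. Per the file headers, the authors' scanner files come from a G2505C scanner and were processed in Feature Extraction 11.0.1.1, whose spot intensity is detrended and background-subtracted but not scaled across arrays. The same deposited files hold per-spot flags, used for outliers and detection, and median spot and background intensities. The deposited table holds log2 values; how it was made is not given in the sources used here. Its columns had medians of 5.06 and correlated at 0.983 to 0.994 with their own arrays. That it is log2, quantile normalized and not centred per gene was read from the values; any further step stays unknown, and it was an alternative only.

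Control spots and outlier spots (597 to 1091 per array) were left out, log2 signals of a probe's spots were averaged, and the array's 75th percentile was subtracted. No spot was saturated. A probe counted as detected when 50% or more of its spots carried the scanner's above-background flag, and probes detected on 3 of 3 arrays in either group were kept. The brightest kept probe stood for a gene. Accessions were matched, without versions, to RefSeq names of assembly GRCr8 (18005 of 30367 probes named); the arrays' annotation names an older build, so coordinates are given only for the promoter windows, in GRCr8, and none for the probes. The 17892 features entered limma 3.58.1 in R 4.3.3 (lmFit, eBayes, Benjamini-Hochberg); 536 lacked a value on at least 1 array, none of them a tested member. Intervals are 95% intervals from the same fit. Slide was inferred from the scan times in the headers, and array positions did not enter that grouping. All arrays were scanned on the same day. The fit was tested on simulated data without a slide effect and with planted changes larger than any tested member's difference, so it does not speak to smaller changes.

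Members and lists were chosen with earlier results of these data known; the adipocyte list was added after values were seen. All members are accounted for; full values are given for the 12 with the smallest p and, as far as measured, for C3, Cfb, Cfd, C7, C3ar1, C5ar1, Serping1, Cd55, F3, Thbd, Procr, Plat, Plau and Plaur; of the other genes the 8 with the smallest p are named. The methods planned for a mean spot signal; the files used here hold the median, which entered the normexp alternative (offset 50). Replicate numbers in the titles did not pair the arrays: deviations from the group means of same-numbered arrays correlated at -0.181, -0.14 and 0.0194. Other alternatives were median and quantile scaling, the deposited values, other filters, the mean of probes, other variance models, slide as a fixed or random block, slide 1 alone and leaving out each array.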

Additional observations from a re-analysis of the deposited data

How the results depend on the processing

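No tested member was called under 18 of the 19 alternatives; leaving out Bailing Capsule replicate 1 called 1, Cfd, so the count ran from 0 to 1 when 1 array was left out. With limma as reported 5 members were at an unadjusted p under 0.05, and 0 to 6 were under the alternatives. The members' median log2 difference was 0.03, and ran from -0.17 (without diabetic replicate 1) to 0.090 (without diabetic replicate 3) when 1 array was left out. Of the 17 members followed through the alternatives, 11 kept their sign, among them F10 and C2, which were not tested under detection on all 6 arrays. The sign turned with slide as a block, and equally within slide 1 alone, for 7 of all 25 tested members, C3 (0.55), Cfi (0.13), C8b (0.016), Plau (0.082), C1r (-0.14), Cd46 (-0.28) and Pros1 (-0.041), and with normexp for Thbd (-0.071). With 1 array left out, values ran from -0.42 to 0.43 for C3, -0.45 to 0.30 for Plau, -0.17 to 0.26 for Thbd and -0.22 to 0.28 for Cd55; the cause was not tested. Features called were 57 as reported, 12 with normexp, 6 with no filter, 9 within slide 1, 6 with a replicate block (numbers from the titles), and 17 (without diabetic replicate 2) to 195 (without diabetic replicate 1) with 1 array left out (18 without diabetic replicate 3; 141, 28 and 33 without Bailing Capsule replicates 1, 2 and 3). The median over all features, -0.09 as reported, was 0.089 with slide as a block. Of the calls 40.4% were higher as reported, 55.6% in the deposited values and 73.7% with slide as a block. Of the other pathway genes 1 was called as reported. It was 2 with median scaling, with detection on all 6 arrays and with trend, alone or robust. It was 0 with quantile scaling, normexp, the deposited values, no filter, the mean of probes, slide as a fixed or random block, slide 1 alone and the replicate block, and 0 to 3 with 1 array left out. Their median of -0.33 was -0.15 with normexp, -0.061 with slide as a block or slide 1 alone, and ran from -0.51 to -0.22 with 1 array left out. The block by replicate number changed no call of a member. Signal near background limits C2, F10, Masp2, Cd46 and the dim Tfpi probe. Background handling also mattered for Proc and Serpine2, which had 0.37 and 0.15 with normexp against 0.89 and 0.42 as reported.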
